A study of Homo sapiens with 3 samples.

Results

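The ID family consists of ID1, ID2, ID3 and ID4, proteins with a helix-loop-helix dimerisation domain but no basic DNA-binding region. The genes were chosen by name, through windows of the human genome in hg19 numbering on the strand of each gene, and all 4 genes had counts in every library. The windows were chr20:30193000-30194700 on the plus strand for ID1, chr2:8822000-8825000 on the plus strand for ID2, chr1:23884000-23886500 on the minus strand for ID3 and chr6:19837500-19842900 on the plus strand for ID4. They held 16 distinct 3′ ends of at least 20 counts summed over the libraries. Across the nuclear genome 10843 ends passed a different filter, a mean level described below, which several of the 16 did not reach. One of the 16, the ID4 end at chr6:19840052, was pointed out with the choice of the genes because it differs between labelling times. Its values are therefore given as a description.

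The study measured the 3′ ends of polyadenylated RNA in HEK293T cells, an established line from human embryonic kidney, by 2P-seq, an assay that reads where the poly(A) tail joins the message. The nucleoside analogue 4-thiouridine (4sU) was added for 30 min or 60 min, and RNA that had taken it up was captured before sequencing. The labels' protocol gives its dose as 1000 mM, which may be a unit error. The input library was titled as that of the 30 min labelling, but its treatment label reads none. Per the labels' protocols, the captured RNA skipped an initial poly(A) selection; the sources used here do not say so of the input. With a single library per group (n = 1) there is no replicate check, and every interval below covers counting error only. The intervals take reads as independent, but no molecular identifiers were named, so they may be too narrow even for that error. Labelling time, capture and poly(A) selection cannot be told apart from the libraries themselves. In bulk RNA, fewer cells with a transcript and less of it in each cell cannot be told apart either.

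ID proteins pair with the E proteins, widely expressed helix-loop-helix activators, and keep them from binding DNA with their tissue-specific partners. They are best known for holding precursor cells back from differentiation and for promoting cell division. Transcription of ID genes is a classic early response to bone morphogenetic proteins through SMAD factors, and ID mRNAs and proteins are known as short-lived. ID1 is a standard readout of that signal, ID2 and ID3 are best known from lymphocyte development, and ID4 from neural and mammary precursors.

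The 150 bases before the start of each gene are shown because they are the only sequence of these genes at hand, and because all 4 genes were higher in captured RNA, as described below. They come from RefSeq, assembly GRCh38.p14, matched by symbol for 4 of 4 genes, and their numbering differs from that of the count tables. They lie at chr20:31605139-31605288 (plus strand), chr2:8681906-8682055 (plus), chr1:23559502-23559651 (minus) and chr6:19837220-19837369 (plus). Capitals mark matches to TATAAA, the core promoter element read by the TATA-binding protein, and to CCAAT, the element read by NF-Y, on either strand.
ID1: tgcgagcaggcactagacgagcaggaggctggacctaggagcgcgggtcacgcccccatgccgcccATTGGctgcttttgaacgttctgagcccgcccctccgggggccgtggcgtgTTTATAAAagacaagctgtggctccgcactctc
ID2: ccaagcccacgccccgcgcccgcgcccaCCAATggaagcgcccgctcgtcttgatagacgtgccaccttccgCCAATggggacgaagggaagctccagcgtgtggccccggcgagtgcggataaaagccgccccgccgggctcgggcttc
ID3: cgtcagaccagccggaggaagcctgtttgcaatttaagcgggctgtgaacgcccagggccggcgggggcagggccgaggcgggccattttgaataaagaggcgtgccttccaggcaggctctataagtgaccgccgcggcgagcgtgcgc
ID4: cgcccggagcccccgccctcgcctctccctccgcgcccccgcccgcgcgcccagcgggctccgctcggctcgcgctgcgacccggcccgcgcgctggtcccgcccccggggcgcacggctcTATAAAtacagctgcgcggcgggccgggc

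TATAAA matched in ID1, 31 bases before the start and, on the other strand with an overlap, 33 bases before it, and in ID4, 29 bases before the start. Of 35116 RefSeq promoters of this length, 6.71% held it. CCAAT matched 84 bases before the start of ID1 and 122 and 78 bases before that of ID2, and 23.5% of promoters held it. ID4 also held CANNTG, the core that E proteins bind, 21 bases before its start (44.2% of promoters), and ID3 held TGACG, part of the cAMP response element, at the far edge of its window, 150 bases before the start (15.4%). GGCGCC, a SMAD-bound element (11.7% of promoters), had no match in these windows. The GC content was 64.0%, 70.7%, 65.3% and 83.3% for ID1 to ID4, beside a median of 60.0% over all promoters. These are letter matches, and none was related to the counts.

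All ID genes were more abundant in RNA captured after 30 min than in the input, and at 60 min each lay between its input and its 30 min level. Levels are given as CPM, nuclear counts scaled to a total of 1000000 per library. A 3′ end read comes from 1 end of a molecule, so a longer molecule does not give more reads. Whether capture depended on transcript length was not tested. ID3 was the most abundant member in every library, with 140 CPM in the input (4603 counts, exact Poisson 95% interval 136 to 145 CPM), 1636 at 30 min (15786 counts) and 809 at 60 min (4977 counts). ID2 followed with 99.1 CPM in the input (3247 counts), 727 at 30 min (7015 counts) and 488 at 60 min (3005 counts).

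ID4 had 86.9 CPM in the input (2846 counts, 83.7 to 90.1), 270 CPM at 30 min (2602 counts) and 131 CPM at 60 min (803 counts). ID1 was the least abundant, at 10.8 CPM in the input (354 counts, 9.71 to 11.99), 111 CPM at 30 min (1067 counts) and 43.7 CPM at 60 min (269 counts, 38.7 to 49.3). The order ID3, ID2, ID4, ID1 held in all 3 libraries, and no neighbouring pair had overlapping counting intervals. Summed over the family, the levels were 337 CPM in the input, 2742 CPM at 30 min and 1472 CPM at 60 min. Of the family's counts, ID3 supplied 41.7% in the input and 59.6% at 30 min, while ID4 supplied 25.8% and 9.83%.

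**Figure D1:**
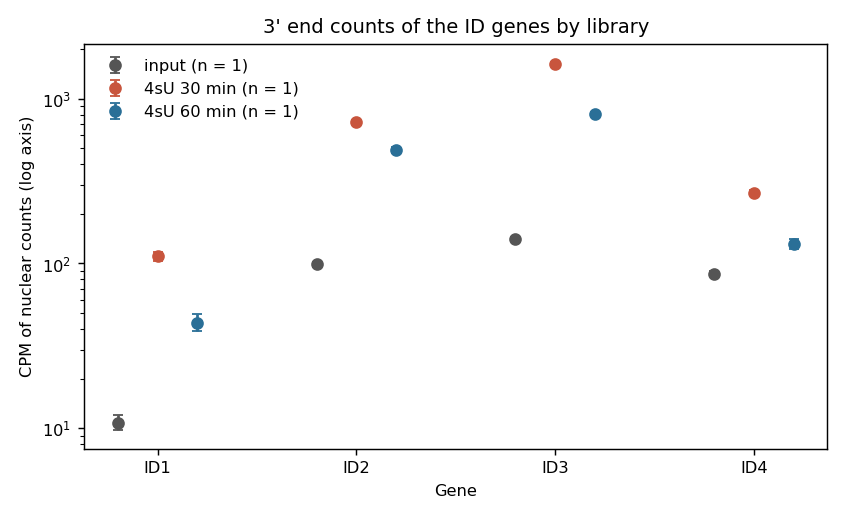
Level of each ID gene in CPM of nuclear counts (log axis) in the input, 4sU 30 min and 4sU 60 min libraries; bars are exact Poisson 95% intervals, often smaller than the points. Each gene is lowest in the input and highest at 30 min, from 10.8 CPM for ID1 in the input to 1636 CPM for ID3 at 30 min.

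At 30 min ID3 was 11.6-fold above the input (11.3 to 12.03), ID1 10.2-fold (9.07 to 11.6), ID2 7.33-fold (7.03 to 7.65) and ID4 3.10-fold (2.94 to 3.27). Intervals of ratios between libraries are exact 95% intervals of a ratio of Poisson counts. Where such a ratio is compared between genes or between ends, the interval is the conditional 95% interval of an odds ratio. A gene was called higher or lower at a ratio of at least 2-fold with an interval that excluded 1, and 4 of 4 genes were called higher. For comparison, ends with gaps of at most 2000 nt on a strand were joined into loci, and of 9914 loci with a mean of at least 10 CPM over the libraries, 35.7% were called higher. The median ratio was 8.78 over the 4 genes and 1.33 over all loci. ID3 lay above 94.6% of loci, ID1 above 93.8%, ID2 above 90.8% and ID4 above 75.8%.

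The members differed from each other in this enrichment beyond the counting error of reads taken as independent. The ratio of ID3 was 3.75 times that of ID4 (3.52 to 3.99) and 1.59 times that of ID2 (1.505 to 1.67), values that no scaling between libraries can move. ID1 and ID3 were the closest pair, with ID3 1.14 times ID1 (1.002 to 1.29). ID4 thus stood lowest of the family, and its interval included the upper quartile of all loci, which was 3.002.

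After 60 min ID3 was 5.76-fold above the input (5.53 to 6.00), ID2 4.93-fold (4.69 to 5.18) and ID1 4.05-fold (3.44 to 4.76). ID4 was 1.503-fold above it (1.39 to 1.63), short of the 2-fold limit. So 3 of 4 genes were called higher, beside 27.8% of loci. The median ratio was 4.49 over the genes and 1.07 over all loci. The same input library, titled as that of the 30 min labelling, served in both comparisons. The order of the genes was not that of 30 min: ID2 now exceeded ID1, by 1.22 times (1.03 to 1.44).

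**Figure D2:**
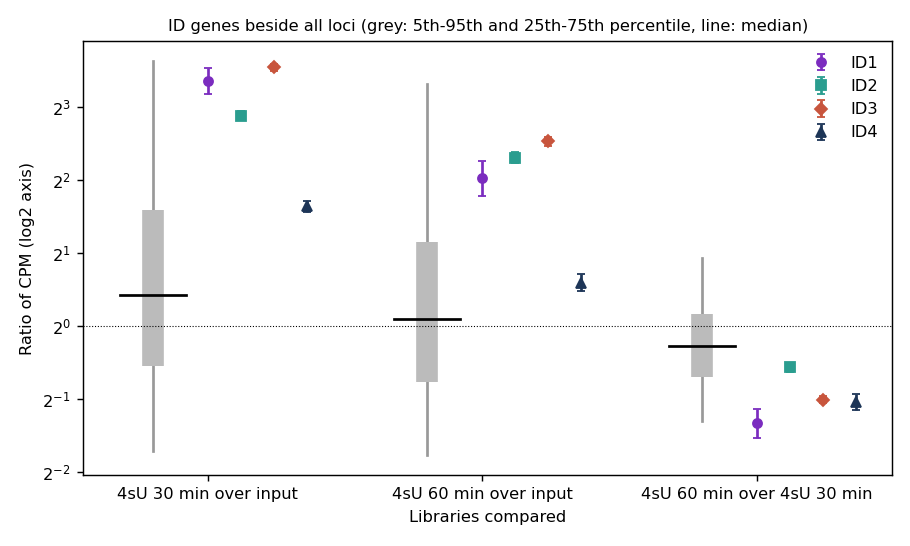
Ratio of CPM (log2 axis) of each ID gene for 4sU 30 min over input, 4sU 60 min over input and 4sU 60 min over 4sU 30 min, with exact 95% intervals. Grey lines and boxes span the 5th to 95th and 25th to 75th percentile of 9914 loci, with a black line at the median; the ID genes lie above the medians of 1.33 and 1.07 against input and below the median of 0.823 between labelling times.

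Between the labelling times every ID gene had a lower CPM at 60 min. ID1 was 2.53-fold lower (2.21 to 2.90), ID4 2.07-fold (1.91 to 2.24), ID3 2.02-fold (1.96 to 2.09) and ID2 1.49-fold (1.43 to 1.55). This called 3 of 4 genes lower, beside 12.5% of loci. Since the median locus was itself lower at 60 min, at a ratio of 0.823, the genes were 2.08-, 1.70-, 1.66- and 1.22-fold below that median, in the same order. ID3 and ID4 lay close to the 2-fold limit, and their calls were lost with median-of-ratios and with TMM scaling. Under these, 1 of 4 genes, ID1, was called, beside 519 and 593 of 9914 loci. The ratios of ID3 and ID4 did not differ beyond counting error (1.02, 0.938 to 1.11), and the ratio of ID2 was 1.36 times that of ID3 (1.29 to 1.43).

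The ID4 call at 60 min also rested on a single end. Without the end at chr6:19840052, ID4 was 1.73-fold lower at 60 min than at 30 min, at a ratio of 0.579 (0.532 to 0.630), and was not called. Its ratio to input without that end was 3.14 at 30 min (2.95 to 3.33) and 1.82 at 60 min (1.67 to 1.97).

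The 3′ ends of ID1 and ID4 were divided among several positions, while ID2 and ID3 each had 1 dominant end. Positions within 24 nt of the highest count were merged into an end. Of the 16 ends, 7 held at least 5% of their gene's counts in a library, and these 7 also held at least 5% in the input: 2 of ID1, 1 of ID2, 1 of ID3 and 3 of ID4. At 30 min 7 of the 7 were called higher than in the input, beside 35.3% of the 10843 ends with a mean of at least 10 CPM. At 60 min 4 were called higher, beside 27.3%, and 1 lower, beside 21.8%. From 30 to 60 min 4 were called lower, beside 14% of ends. The end called lower than the input, and 1 of these 4, was the ID4 end at chr6:19840052, so neither count is read as a result.

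In ID1 the main end lay at chr20:30194313 and the other end 49 nt upstream, at chr20:30194264. The upstream end had 24 counts in the input, 280 at 30 min and 78 at 60 min. These made up 6.78% of ID1 counts in the input (exact binomial interval 4.39 to 9.92), 26.2% at 30 min (23.6 to 29.0) and 29.0% at 60 min (23.7 to 34.8). The share was thus low in the input and similar in both captured libraries, whose intervals overlap. It was 19.5 points above the input at 30 min (Newcombe interval 15.4 to 23.0) and 22.2 points at 60 min (16.2 to 28.3), and it moved by 2.75 points between the labelling times (-3.02 to 8.99).

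In CPM the upstream ID1 end went from 0.732 in the input to 29.0 at 30 min, 39.6-fold (26.1 to 62.9), and stood at 12.7 CPM at 60 min, 17.3-fold (10.8 to 28.6). The main ID1 end had 326, 777 and 189 counts in the order input, 30 min and 60 min. It was 8.09-fold above the input at 30 min (7.10 to 9.24) and 3.09-fold at 60 min (2.57 to 3.71). Relative to the main end, the upstream end was enriched 4.89 times at 30 min (3.15 to 7.92) and 5.61 times at 60 min (3.36 to 9.57). The input counts of the upstream end are few, which sets the width of these intervals. Merging within 50 nt in place of 24 nt put the upstream peak into the main end. Positions at -51 to -69 nt then stood apart from it, so that merge split the upstream end.

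**Figure D3:**
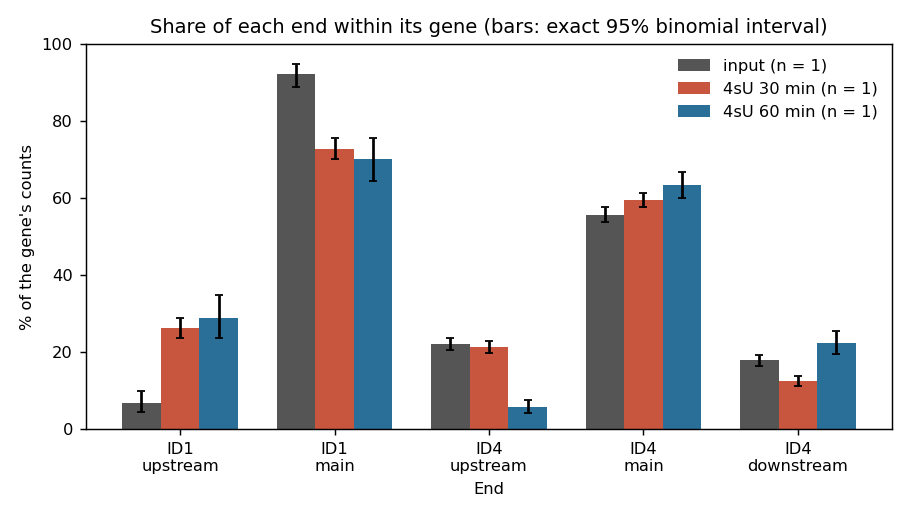
Share of the gene's counts (percent) at each end of ID1 and ID4 with at least 5% of the gene in a library, in the input, 4sU 30 min and 4sU 60 min; error bars are exact 95% binomial intervals. The upstream ID1 end goes from 6.78% in the input to 26.2% and 29.0% in captured RNA, and the upstream ID4 end from 22.1% and 21.3% to 5.85% at 60 min.

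ID4 had a main end at chr6:19840914, an upstream end 862 nt before it at chr6:19840052 and a downstream end 1510 nt after it at chr6:19842424. The upstream end had 629 counts in the input, 554 at 30 min and 47 at 60 min. It held 22.1% of ID4 counts in the input (20.6 to 23.7), 21.3% at 30 min (19.7 to 22.9) and 5.85% at 60 min (4.33 to 7.71). The 60 min library was the low one, and the other libraries overlapped. From 30 to 60 min its level went from 57.4 to 7.64 CPM, 7.51-fold lower (5.57 to 10.3), which is also 2.51-fold below the input (1.87 to 3.46). Relative to the main end it was 3.88 times lower at 60 than at 30 min (2.82 to 5.43), a value free of scaling.

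The main ID4 end had 1586, 1549 and 510 counts in the order input, 30 min and 60 min, which were 55.7%, 59.5% and 63.5% of ID4. The downstream end had 510, 325 and 180 counts, or 17.9% (16.5 to 19.4), 12.5% (11.2 to 13.8) and 22.4% (19.6 to 25.5). The downstream share was lowest at 30 min and highest at 60 min, with no overlap between intervals. These shares are of a total that includes the upstream end, which came with the choice of the genes. Its low count at 60 min raises the other ID4 shares there, so their 60 min values are not read as a result. Between labelling times the downstream share was 9.93 points higher at 60 min (6.87 to 13.2), just under the limit of 10 points used to call a change. In CPM this end went from 15.6 in the input to 33.7 at 30 min and 29.3 at 60 min, a change between labelling times within counting error (1.15-fold lower, 0.956 to 1.39). Relative to the main end it was 1.53 times lower at 30 min than in the input (1.31 to 1.80) and 1.68 times higher at 60 than at 30 min (1.36 to 2.08).

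A share was called changed at 10 points or more with an interval that excluded 0. Of the 5 ends in ID1 and ID4, 2 were called between 30 min and input, beside 21.8% of 15390 ends in loci with several ends, and 3 between 60 min and input, beside 25.5%. From 30 to 60 min 1 was called, beside 13.8%, but this was the end at chr6:19840052, which came with the choice of the genes, so nothing is read from that count. The same end is among the 3 between 60 min and input. Shares of a gene add up to a whole, so the calls at both ID1 ends are mirror images, and the count is not one of independent changes. The upstream end of ID1 was high in both captured libraries, and that of ID4 was low at 60 min.

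**Figure D4:**
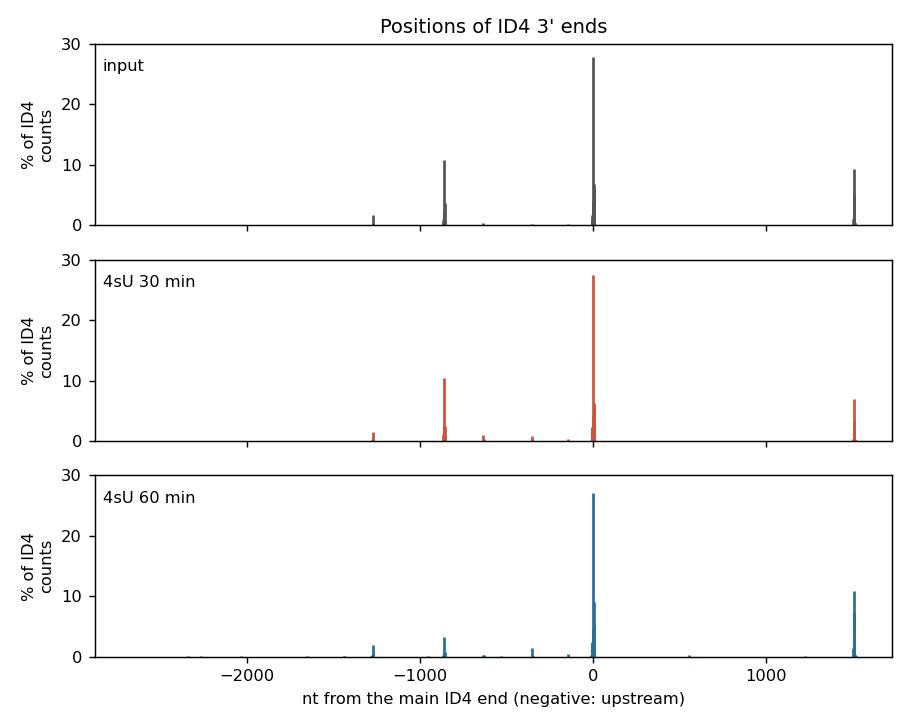
Percent of ID4 counts at each position, by distance in nt from the main end (negative values are upstream), for the input, 4sU 30 min and 4sU 60 min. The cluster 862 nt upstream is clear in the input and at 30 min and small at 60 min, while the main end and the end 1510 nt downstream are present in all 3 libraries.

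The other ends held little of their genes. ID4 had 3 more ends of at least 20 counts, at 1272, 635 and 350 nt upstream of the main end. The one at chr6:19839642 kept 2.78%, 2.77% and 3.49% of ID4 counts in the order input, 30 min and 60 min. The one at chr6:19840564 had 12, 39 and 17 counts, or 0.422%, 1.499% and 2.12%. All counts outside the 3 larger ends made up 4.25% of ID4 in the input, 6.69% at 30 min and 8.22% at 60 min. The share of the main end was also highest at 60 min. The total includes the upstream end that came with the choice of the genes, and its low count at 60 min raises every other ID4 share there. None of these rises at 60 min is therefore read as a result.

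ID2 ended at chr2:8824446 in 95.0% of its counts in the input (94.2 to 95.7), 96.4% at 30 min and 97.3% at 60 min. Its largest minor end, 138 nt downstream at chr2:8824584, had 117, 124 and 40 counts. That end held 3.60% of ID2 in the input (2.99 to 4.30), 1.77% at 30 min (1.47 to 2.10) and 1.33% at 60 min (0.953 to 1.81). It was therefore less enriched than the main end, at 3.60-fold over input at 30 min (2.77 to 4.67) against 7.44-fold (7.13 to 7.77). By contrast, an end 423 nt upstream, at chr2:8824023, had 2 counts in the input, 39 at 30 min and 15 at 60 min. It reached the minimum of 20 counts through the captured libraries, so its high ratio follows in part from that minimum.

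ID3 had 97.2%, 96.9% and 97.1% of its counts at chr1:23884418 in the order input, 30 min and 60 min, and its share varied by less than counting error. The only other end of at least 20 counts lay 38 nt upstream, at chr1:23884456, with 126, 493 and 143 counts. It was 13.3-fold above the input at 30 min (10.9 to 16.3), close to the 11.6-fold of the main end.

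Within the main ends, the mapped positions were spread over several nucleotides, and the leading position of each main end was the same in all 3 libraries. The sequence around the ends was not at hand, so priming inside the message was not checked for any end. In ID3, chr1:23884418 held 30.3% of the end's counts in the input, 28.3% at 30 min and 27.9% at 60 min. The next position, 8 nt upstream at chr1:23884426, held 20.2% (19.0 to 21.4), 23.5% (22.8 to 24.1) and 26.2% (24.9 to 27.4). That position was higher than in the input by 3.32 points at 30 min (1.94 to 4.65) and by 6.03 points at 60 min (4.32 to 7.74). ID3 was the broadest main end of the family, with an SD of positions of 5.49, 5.44 and 5.30 nt in the order input, 30 min and 60 min.

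ID2 was narrower, with an SD of 1.90, 2.11 and 2.07 nt. Its leading position, chr2:8824446, held 41.0% of the end in the input (39.2 to 42.7), 35.6% at 30 min (34.5 to 36.7) and 40.6% at 60 min (38.8 to 42.4). Here the 30 min library was the low one, and the other libraries overlapped. In ID1 the leading position of the main end held 37.1% (31.9 to 42.6), 31.9% (28.6 to 35.3) and 39.2% (32.2 to 46.5), intervals that overlap throughout. The leading position of the main ID4 end held 49.9% (47.4 to 52.4), 46.2% (43.7 to 48.7) and 42.5% (38.2 to 47.0).

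**Figure D5:**
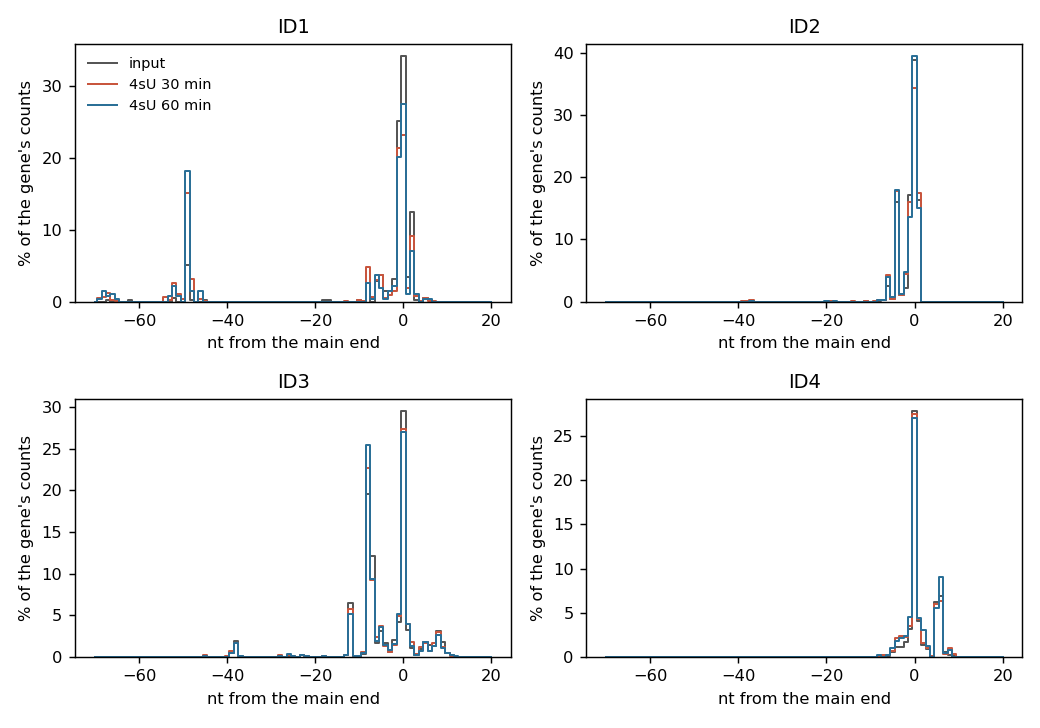
Percent of each gene's counts by position from 70 nt upstream to 20 nt downstream of the main end of ID1, ID2, ID3 and ID4, for the input, 4sU 30 min and 4sU 60 min. ID1 shows the end 49 nt upstream, low in the input; ID3 shows leading positions 8 nt apart; the highest position of each gene is the same in all 3 libraries.

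The mean position of the counts in captured RNA lay upstream of that in the input in 6 of 7 ends at 30 min and in 7 of 7 at 60 min. The shifts ranged from -0.877 to 0.147 nt at 30 min and from -1.40 to -0.0386 nt at 60 min, with medians of -0.220 and -0.209 nt. This was also the direction of most ends of the genome: of 4874 ends with a mean of at least 30 CPM, 71.9% lay upstream at 30 min and 70.3% at 60 min, with medians of -0.117 and -0.106 nt. The largest shifts were both at the upstream ID1 end, whose input mean had a standard error of 0.918 nt. At 60 min the shifts of the main ID2 and ID3 ends, -0.209 and -0.309 nt, exceeded the standard errors of their means. Those of the main ID1 and downstream ID4 ends, -0.0690 and -0.0386 nt, were smaller than the standard errors of their input means, 0.147 and 0.0836 nt.

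Counts outside the genes were few. On the opposite strand, the windows of ID1, ID3 and ID4 had 0 counts in every library, which allows up to 0.0916 CPM in the input, 0.311 CPM at 30 min and 0.488 CPM at 60 min. The ID2 window had 0, 7 and 5 such counts in the order input, 30 min and 60 min. In RefSeq, ID3 lies within the span of the noncoding gene LOC124903876, and ID2 neighbours ID2-AS1, a gene named as its antisense partner. The counts of ID3 cannot be separated from any made by the overlapping gene on the same strand.

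Each main end had other ends with nearly the same pair of ratios to the input. By distance between log2 ratios at 30 and 60 min, among 4870 ends outside the windows with a mean of at least 30 CPM, the end nearest to the main ID3 end was chr17:17104311 on the minus strand. It was 11.7-fold above the input at 30 min and 5.67-fold at 60 min. The nearest to ID2 was chr19:39797459 on the minus strand (7.64- and 5.04-fold), to ID1 chr8:49830331 on the minus strand (8.02- and 3.13-fold) and to ID4 chr13:115092796 on the plus strand (3.33- and 1.73-fold). Within a distance of 0.25 lay 21 of the 4870 ends for ID3, 38 for ID2, 18 for ID1 and 66 for ID4. The likeness rests on 3 libraries, and these ends were not assigned to genes. The E proteins TCF3, TCF4 and TCF12 and the genes of the bone morphogenetic protein pathway were not analysed here, since no annotation in the numbering of the tables was used.

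Over the whole libraries, nuclear counts were 9652023 at 30 min, 6151986 at 60 min and 32768468 in the input. Mitochondrial counts, kept out of the CPM, were 31.8%, 31.1% and 7.46% of all counts in the same order. With them in the total, 4 of 4 genes were again called higher than the input at 30 min and 3 of 4 at 60 min. Beside them, 2714 and 2029 of 9914 loci were called higher. From 30 to 60 min 2 genes were called lower in place of 3, without ID3, beside 1176 of the loci.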

How the data were processed

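The authors deposited, for each library, a table without header of unnormalized read counts per stranded position. Bowtie and cutadapt are named in the submitters' processing notes, without versions. The genome build and the treatment of multi-mapping reads were not found in the sources used here. Positions were read as 1-based; counts on chromosome 1 reached position 249223263, and the windows were taken in hg19 numbering. The strand in the tables was read as the RNA strand. Per the labels' protocols no molecular identifiers were named, so reads are not independent molecules.

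Counts in each window were summed and scaled to CPM of nuclear counts. For a count of 0 the limit was 3 counts in that library. No test was made with 1 library per group and no p-value is given. Ratios between libraries and shares carry exact (Clopper-Pearson) 95% intervals and differences of shares Newcombe intervals. Comparisons of ratios between genes or between ends carry conditional 95% intervals of an odds ratio. The code was checked on data with known answers. Named items were the ID genes, their ends of at least 20 counts (those with at least 5% of the gene in full), and for each main end the nearest other end. Alternatives were other scalings, among them TMM (edgeR 4.0.16), other sums, windows, merging distances and thresholds; 1 more, ID4 without its upstream end, was added after its values were seen. Genes, lists and rules were chosen with earlier results of these data known. Scripts used Python 3.11.15, scipy 1.17.1 and pandas 2.3.3.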

Additional observations from a re-analysis of the deposited data

Results flagged for a closer look

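Counts outside the ID genes were higher in captured RNA than in the input at several places, which no comparison of the report used. Within 3000 nt downstream of the ID3 window there were 29 counts at 30 min and 11 at 60 min against 4 in the input, or 3.005, 1.79 and 0.122 CPM; these were 0.184%, 0.221% and 0.0869% of the ID3 counts. Within 3000 nt downstream of ID1 there were 10 counts at 30 min against 1 in the input. On the opposite strand of the ID2 window there were 7 counts at 30 min and 5 at 60 min against 0 in the input. Within 3000 nt of ID2 on its own strand there were 6 counts upstream and 5 downstream at 30 min, against 3 and 1 in the input. These counts are small, and their source was not tested.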

How the results depend on the processing

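No paired analysis was possible because each group had 1 library. The counts of genes called higher than the input, 4 at 30 min and 3 at 60 min, were the same under all 7 alternatives run. The count called lower from 30 to 60 min, 3, went to 2 with mitochondrial counts in the total or with main ends alone, and to 1 under TMM and 1 under median-of-ratios scaling. No ratio of a gene turned its direction, and of 84 values under these alternatives 53 stayed within the interval of the reported ratio and 31 moved beyond it, 27 of them by scaling. The scalings also changed the background: loci called higher and lower at 30 min numbered 3539 and 1518 with nuclear CPM, 2714 and 2452 with all counts, 2837 and 2286 by the median of ratios, and 2848 and 2259 under TMM. At 60 min over input they were 2759 and 1930, 2029 and 3008, 2607 and 2096, and 2540 and 2182. From 30 to 60 min they were 426 and 1237, 438 and 1176, 771 and 519, and 707 and 593. In the same order of scalings, the median log2 ratio of loci was 0.41, -0.026, 0.046 and 0.057 at 30 min over input, and -0.28, -0.26, 0.019 and -0.025 at 60 min over 30 min. Merging within 50 nt put the upstream ID1 peak into the main end and left its further positions apart. The ends with a changed share were then 0 at 30 min and 1 at 60 min against input, in place of 2 and 3. With a threshold of 5 points they were 2 in place of 1 between the labelling times. Both were ends of ID4, whose shares depend on the end that came with the choice of the genes. No share over all ends stands beside the counts at 50 nt or 5 points, so they are not read as a result. Depth limits the ratios of ends with few input counts, such as the 24 of the upstream ID1 end and the 2 of the ID2 end at chr2:8824023.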
